A study of Mus musculus with 9 samples.

Results

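Meis1, Meis2, Pbx3 and Shox2 are 4 genes of the proximal limb, and the regions called for HOXA13 and HOXD13 around them were examined in peak lists from the distal forelimb of mouse embryos. A region was assigned to a gene when its summit lay in the gene body or within 200 kb of either end. Joining overlapping intervals of the 6 wild-type (wt) lists gave 192 such sites, of 138424 sites on chromosomes 1 to 19, X and Y. Of these, 45 lay at Meis1, 46 at Meis2, 76 at Pbx3 and 25 at Shox2.

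The peak lists came from 9 CUT&RUN libraries, a method in which an antibody tethers micrococcal nuclease to a DNA-bound protein and the released fragments are sequenced. There were 3 wt HOXA13 and 3 wt HOXD13 libraries at E12.5, 2 HOXA13 libraries at E12.5 from the II1 T-DOM 542 line, and 1 library from that line labelled HOXD13 at E11.5. All were from distal forelimbs of strain B6CBAF1, and each library was made from several pooled embryos. The mutant embryos, described as homozygous, carry in T-DOM, the regulatory domain used by the proximal limb, an inserted copy of the distal limb enhancer II1 with a promoter and a lacZ reporter, so that they are 1 line with an intact endogenous II1. The wt HOXD13 replicate 3 is labelled as a reanalysis of an earlier library, and replicates 3 of both antibodies were sequenced with another read length. The 9 lists held between 23939 and 117719 intervals, made from 36.9 to 65.5 M read ends, and the shortest list was that of wt HOXD13 replicate 1. RNA was not measured in these libraries, so the sites carry no information on the expression of the 4 genes.

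Meis1, Meis2 and Pbx3 encode homeodomain proteins of the TALE class, which bind DNA together with one another and with HOX proteins. Meis1 and Meis2 are expressed in the early limb bud and then become restricted to its proximal part, where they help to specify proximal identity, and PBX proteins are their partners. Shox2 encodes a homeodomain protein required for the growth of the upper arm and thigh skeleton. HOXA13 and HOXD13, together called HOX13, act at the distal end of the limb, in the future hand and foot, where they are needed for digits to form.

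The sequences at the centre of some widely called sites were examined first, because the letters bound by HOX13 proteins can be read in them. Sites were searched in the 100 bp around their highest summit for CCNATAAA, CCNGTAAA, CTNATAAA and CTNGTAAA on both strands, here called the HOX13 letters. Of the 17 sites called in all 6 wt lists, 5 held them. The first sequences below were picked from widely called sites because they held the letters. Sequences are from GRCm38, the assembly of mm10, on the plus strand, with the HOX13 letters in capitals. The first lies beyond the 3′ end of Meis1, the second in an intron of Meis1, the next in an intron of Pbx3, and the last beyond the 3′ end of Pbx3 in an intron of the non-coding gene C230014O12Rik. None of them overlaps an annotated UTR.
Meis1 chr11:18712802-18712901: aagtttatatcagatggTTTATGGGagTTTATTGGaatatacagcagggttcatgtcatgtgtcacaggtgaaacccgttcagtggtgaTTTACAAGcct
Meis1 chr11:18916829-18916928: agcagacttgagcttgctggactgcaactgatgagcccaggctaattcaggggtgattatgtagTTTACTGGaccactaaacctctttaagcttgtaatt
Pbx3 chr2:34244850-34244949: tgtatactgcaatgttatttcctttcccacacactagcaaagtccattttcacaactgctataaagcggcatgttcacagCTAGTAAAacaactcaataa
Pbx3 chr2:34054437-34054536: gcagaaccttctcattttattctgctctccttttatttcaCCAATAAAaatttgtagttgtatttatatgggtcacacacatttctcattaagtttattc
The Meis1 3′ site held 3 copies of the letters in its 100 bp. At least 3 copies occurred in 0.0939% of all 138424 sites, and in 1 of the 192 sites here.

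The leading sites of Meis2 and Shox2 held none of the HOX13 letters in the 100 bp around the highest summit, although both held them around another summit of the same site. The same was true of the Meis1 site of all 6 lists, chr11:19159993-19161120, which is not printed. The Meis2 and Shox2 windows are shown as well, a choice made after their values were seen. The shorter core ATAAA, which was searched with GTAAA on both strands, is in capitals.
Meis2 chr2:115897746-115897845: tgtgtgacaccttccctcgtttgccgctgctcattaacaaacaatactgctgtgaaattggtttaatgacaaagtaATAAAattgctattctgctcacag
Shox2 chr3:66798240-66798339: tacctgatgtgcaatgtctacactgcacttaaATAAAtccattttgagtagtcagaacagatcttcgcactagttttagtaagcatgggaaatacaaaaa
The Meis2 window lies in an intron of Meis2, and the Shox2 window is intergenic, 183481 bp downstream of the 5′ end of the gene.

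How widely the sites were called was examined next. In all 6 wt lists, 17 of the 192 sites were called (8.85%), beside 10% of all sites. Of these 17, Meis1 had 1, Meis2 had 5, Pbx3 had 8 and Shox2 had 3. At least 4 wt lists called 53 of the 192 sites (27.6%), beside 24.5% of all sites, and a single list called 87 (45.3%), beside 50.6%. These shares describe the sites of the 4 genes as lying near those of the whole genome. Sites of 1 list were short, with a median width of 263 bp, and sites of all 6 lists had a median width of 1241 bp, beside 262 and 1128 bp over the genome.

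**Figure D1:**
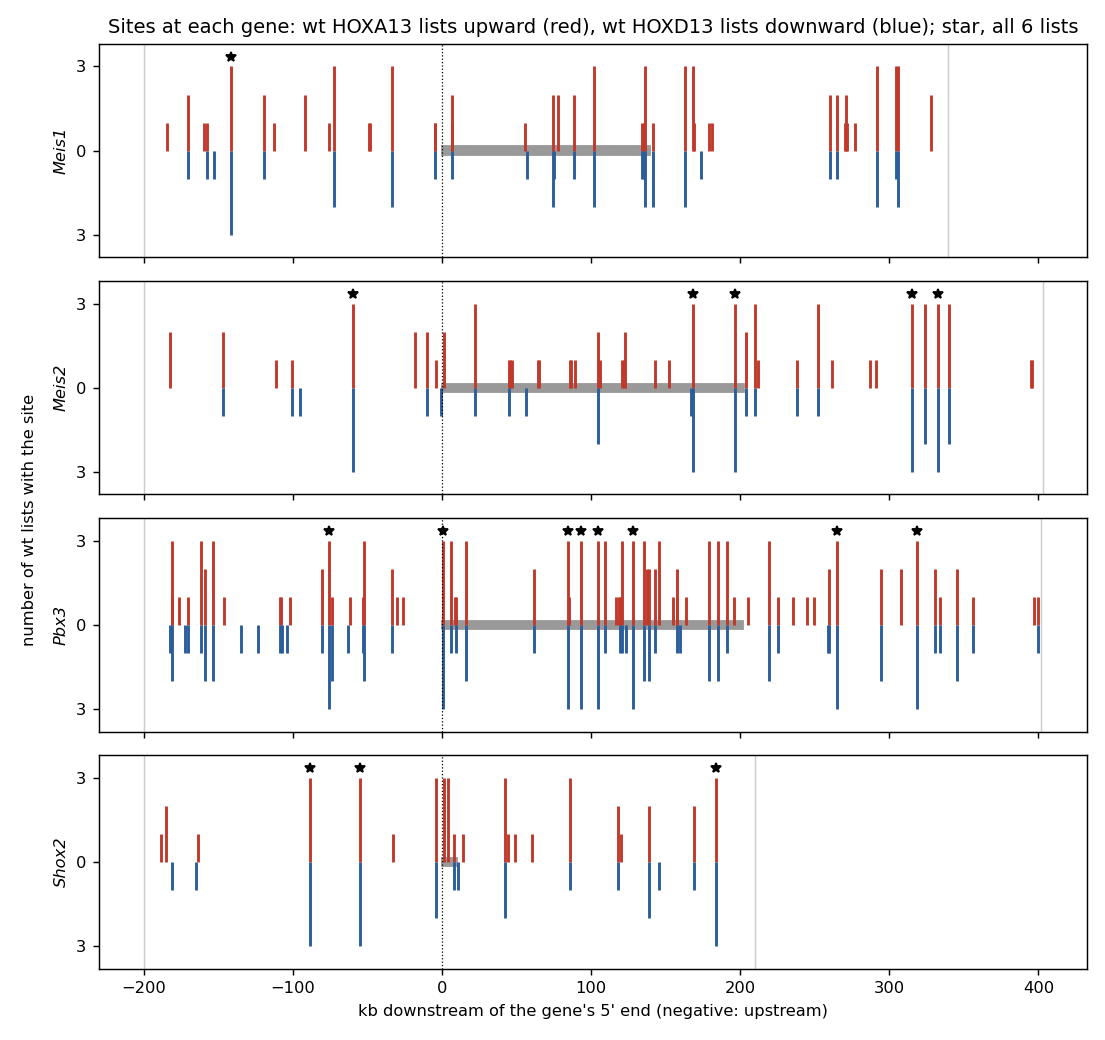
Sites in the window of each gene by position (horizontal axis, kb from the 5′ end, positive downstream), with the number of wt HOXA13 lists upward in red and of wt HOXD13 lists downward in blue. Grey bars are gene bodies, light vertical lines the window ends and stars the sites of all 6 lists, of which Meis1 has 1, Meis2 5, Pbx3 8 and Shox2 3.

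The shortest list set much of these counts. That list, wt HOXD13 replicate 1, contributed 3 intervals at Meis1, 8 at Meis2, 13 at Pbx3 and 4 at Shox2. Without it, the sites in every remaining list were 6 at Meis1, 6 at Meis2, 14 at Pbx3 and 5 at Shox2. These were 31 in all (16.1%), beside 14.1% of all sites. Meis1 had 7 sites called in exactly 5 lists, of 45, beside 9526 of 138424 over the genome.

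By antibody, 89 of the 192 sites (46.4%) were called with both, beside 42.3% of all sites. HOXA13 lists alone called 80 sites (41.7%), beside 38% of all, and HOXD13 lists alone called 23 (12.0%), beside 19.6%. In all 3 HOXA13 lists and no HOXD13 list were 4 sites, beside 1.32% of all sites, and these were 1 at Meis1, 1 at Pbx3 and 2 at Shox2. The opposite pattern, all 3 HOXD13 lists and no HOXA13 list, was met at 0 of the 192 sites, beside 0.0318% of all. HOXA13 lists were on average longer than HOXD13 lists, and the part of list length in these counts was not tested.

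Among sites of 1 list, wt HOXA13 replicate 1 was the most frequent source at Meis1, with 6 of 18, at Meis2, with 14 of 26, and at Pbx3, with 12 of 31, beside 32.0% over the genome. At Shox2, wt HOXA13 replicate 3 gave 7 of 12, beside 17.3%, and it is one of the libraries sequenced with another read length. These shares were not compared by a test.

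To take out list length, the intervals with a summit in each window were divided by the length of the list, as intervals per 10000. At Pbx3 the 3 HOXA13 lists had 6.21, 6.65 and 6.28, and the 3 HOXD13 lists 5.43, 6.25 and 7.18. The HOXD13 values lay on both sides of the HOXA13 values. The means were 6.38 ± 0.237 with HOXA13 and 6.29 ± 0.877 with HOXD13 (SD, n = 3 each; two-sided exact permutation p = 0.9).

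At Meis1 the HOXA13 lists had 3.91, 3.07 and 3.83 intervals per 10000, and the HOXD13 lists 1.25, 2.47 and 3.99. Replicate 1 of HOXD13 was the lowest of the 6 and replicate 3 the highest, so the groups overlapped. The means were 3.61 ± 0.465 and 2.57 ± 1.37 (SD, n = 3 each; exact permutation p = 0.4), a ratio of 1.40. The ratio was 6.54 when intervals under a fold enrichment of 5 were left out. It was 3.50 among the 10000 intervals of each list with the highest −log10 p. Both were at the smallest p of the design (exact permutation p = 0.1 each). The 6.54 rests on few HOXD13 intervals. Fold enrichment at Meis1 reached only 4.88 and 4.95 in HOXD13 replicates 1 and 3, so replicate 2 alone kept any. Meis2 reached this p as well when intervals under a fold enrichment of 5 were left out. How many genes outside the 4 reach it was not counted.

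At Meis2 the HOXA13 lists had 4.03, 3.07 and 3.14, and the HOXD13 lists 3.34, 2.47 and 2.39. One HOXD13 list exceeded the lower pair of HOXA13 lists. The means were 3.41 ± 0.533 and 2.74 ± 0.526 (SD, n = 3 each; exact permutation p = 0.3). The ratio of HOXA13 to HOXD13 was 1.76 when intervals under a fold enrichment of 5 were left out. It was 1.31 when summits were counted in place of intervals. Both were at the smallest p of the design (exact permutation p = 0.1 for each ratio). Among the 10000 intervals of each list with the highest −log10 p, Meis2 did not reach it (exact permutation p = 0.7).

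At Shox2 the HOXA13 lists had 1.495, 1.71 and 3.14, and the HOXD13 lists 1.67, 1.56 and 2.13. Replicate 3 was the highest of each antibody, and the groups overlapped. The means were 2.11 ± 0.894 and 1.79 ± 0.301 (SD, n = 3 each; exact permutation p = 0.8), and with replicates 1 and 2 alone the ratio of HOXA13 to HOXD13 was 0.990 in place of 1.18. In the gene body alone it was 8.38 (exact permutation p = 0.1), where HOXD13 was called only at chr3:66973481-66973926, in replicate 2. With 3 libraries against 3, the smallest p this test allows is 0.1, and no difference between the antibodies could pass the threshold in this design. Adjusted over 7 tests, p was between 0.875 and 0.9. Replicates are separate pools of embryos in the study's description, and p measures the spread between them.

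**Figure D2:**
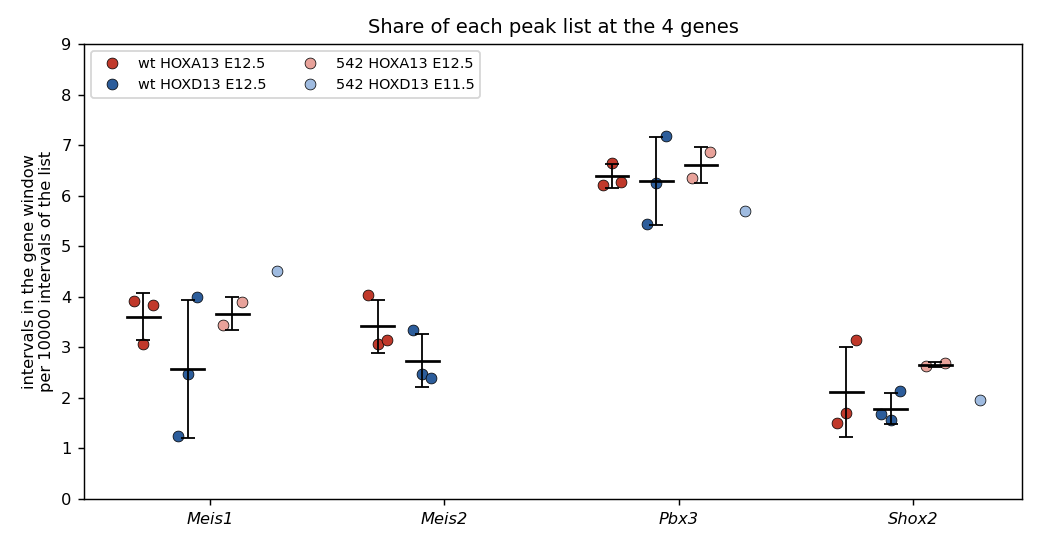
Intervals with a summit in the window of each gene per 10000 intervals of the list (vertical axis), 1 point per library, with the mean and SD as bars where a group has more than 1 library. Pbx3 lies between 5.43 and 7.18 in all 9 lists, the wt groups overlap at every gene, and 542 lists were not used for Meis2.

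Transcription start sites were described next. No wt list called a site within 1000 bp of an annotated start of Meis1. Over the genome, 63.7% of 21938 protein-coding genes had a site of some wt list there, and 20.2% had a site of all 6 lists.

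Among the 4 genes, Pbx3 alone had a start site in all 6 lists, chr2:34372413-34373435, whose summit lies in the gene 352 bp from its 5′ end. Fold enrichment is the ratio of the pileup of read ends at a summit to the local background. At this site it was 5.68, 4.56 and 3.10 with HOXA13 and 5.20, 6.60 and 5.48 with HOXD13. The highest value was in a HOXD13 library and the lowest 2 in HOXA13 libraries, with overlap.

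Meis2 had 2 weak sites near a start. The first, chr2:116064590-116064865, was called in HOXA13 replicates 1 and 3 with fold enrichments of 2.02 and 2.74. The second, chr2:116066838-116067206, was called in HOXD13 replicate 2 alone, at 2.36.

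Both sites near a start of Shox2 were called in all 3 HOXA13 lists and no HOXD13 list. The first, chr3:66979816-66980544, had fold enrichments of 4.52, 3.05 and 2.79, and the second, chr3:66977135-66977964, had 3.08, 2.19 and 2.32. These are low values, with a median percentile within their lists of 30.1 and 3.24. The lists hold called regions only, so a site that was not called may still carry some signal. Both were called in all 3 lists of the 542 line, the list labelled HOXD13 included, where fold enrichment was 2.79 and 4.03.

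Another site 3893 bp upstream of the 5′ end of Shox2, chr3:66985247-66986121, lies with its summit 8 bp from the start of the neighbouring gene Rsrc1 and was called in 5 wt lists. It is not within 1000 bp of a Shox2 start and was singled out after its values were seen.

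Most high fold enrichments were reached at sites away from the starts. At Meis1, the single site of all 6 lists, chr11:19159993-19161120, is intergenic, with its summit 141755 bp upstream of the gene. Its fold enrichment was 8.53, 6.92 and 5.94 with HOXA13 and 4.88, 4.87 and 4.95 with HOXD13. Every HOXA13 value exceeded every HOXD13 value. The pileup in this site was 65 read ends in HOXA13 replicate 1 (exact Poisson 95% interval 50.2 to 82.8) and 24 in HOXD13 replicate 1 (15.4 to 35.7). Each was taken at the library's own highest summit, so the positions can differ. These intervals cover counting error only.

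The other leading Meis1 sites were called in 5 lists, wt HOXD13 replicate 1 being the one without a call. The site 3′ of Meis1 whose sequence holds 3 copies of the letters, chr11:18712462-18713486, had 10.6, 11.0 and 4.16 with HOXA13 and 5.68 and 2.83 with HOXD13 replicates 2 and 3. The intronic site, chr11:18916579-18917450, had 9.98, 7.02 and 4.33 with HOXA13 and 5.00 and 3.64 with HOXD13. In both, replicate 3 was the lowest of each antibody. A site called with HOXA13 only among the wt lists, chr11:18850371-18851176, had 4.34, 3.81 and 2.75. The 542 list labelled HOXD13 called this site too, at 3.84.

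At Meis2 the leading site was intronic, chr2:115897028-115898292. Fold enrichment was 13.8, 10.7 and 6.67 with HOXA13 and 7.01, 6.68 and 6.91 with HOXD13. HOXA13 replicates 1 and 2 stood above all others, and replicate 3 was level with the HOXD13 libraries. Its median percentile within the lists was 97.0, the highest of the 17 sites, and 93.4% of all sites called in 6 lists had a lower one. The pileup ranged from 52 read ends in HOXD13 replicate 1 (Poisson 95% interval 38.8 to 68.2) to 374 in HOXA13 replicate 1 (337 to 414).

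The second Meis2 site, chr2:115732929-115734075, lies 332423 bp downstream of the 5′ end of Meis2, in an intron of BC052040. It had 13.7, 10.8 and 5.53 with HOXA13 and 4.71, 6.62 and 4 with HOXD13. Another site, in a different intron of Meis2, chr2:115868903-115870081, had 9.44, 5.59 and 3.17 against 2.90, 8.19 and 4.96. Here the libraries of the antibodies were interleaved.

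At Pbx3 the leading site, chr2:34244228-34245446, is intronic. It had 12.49, 15.1 and 5.30 with HOXA13 and 5.66, 8.78 and 3.11 with HOXD13. HOXA13 replicates 1 and 2 were the highest, and both replicates 3 were the lowest of their antibody. The site in C230014O12Rik, chr2:34053699-34055401, had 8.68, 7.09 and 6.27 against 3.28, 5.60 and 6.97. The last of them, chr2:34288461-34289701, in an intron of Pbx3 and of the overlapping C79798, had 9.98, 7.63 and 3.19 against 5.80, 5.95 and 4.65. The site called with HOXA13 only among the wt lists, chr2:34227164-34228089, had 3.40, 2.83 and 2.80. The 542 list labelled HOXD13 called this site too, at 2.53.

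At Shox2 the 3 sites of all 6 lists lay outside the gene. The intergenic one, chr3:66797726-66798922, had 14.2, 9.78 and 7.24 with HOXA13 and 6.68, 7.72 and 3.74 with HOXD13. HOXA13 replicate 3 lay within the range of HOXD13. The remaining ones lie upstream of Shox2 in introns of Rsrc1. At chr3:67069922-67071577 fold enrichment was 10.3, 8.70 and 4.50 against 6.40, 7.15 and 4.64, and at chr3:67035876-67037216 it was 10.5, 8.36 and 5.53 against 3.71, 5.81 and 2.60. The highest wt value in the Shox2 window was at a site of 4 lists, singled out after its values were seen, chr3:66842390-66843336. It had 16.8 and 10.4 in HOXA13 replicates 1 and 2, and 3.32 and 4.60 in HOXD13 replicates 1 and 2, with no call in replicates 3, and 15.8, 15.2 and 14.3 in the lists of the 542 line.

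**Figure D3:**
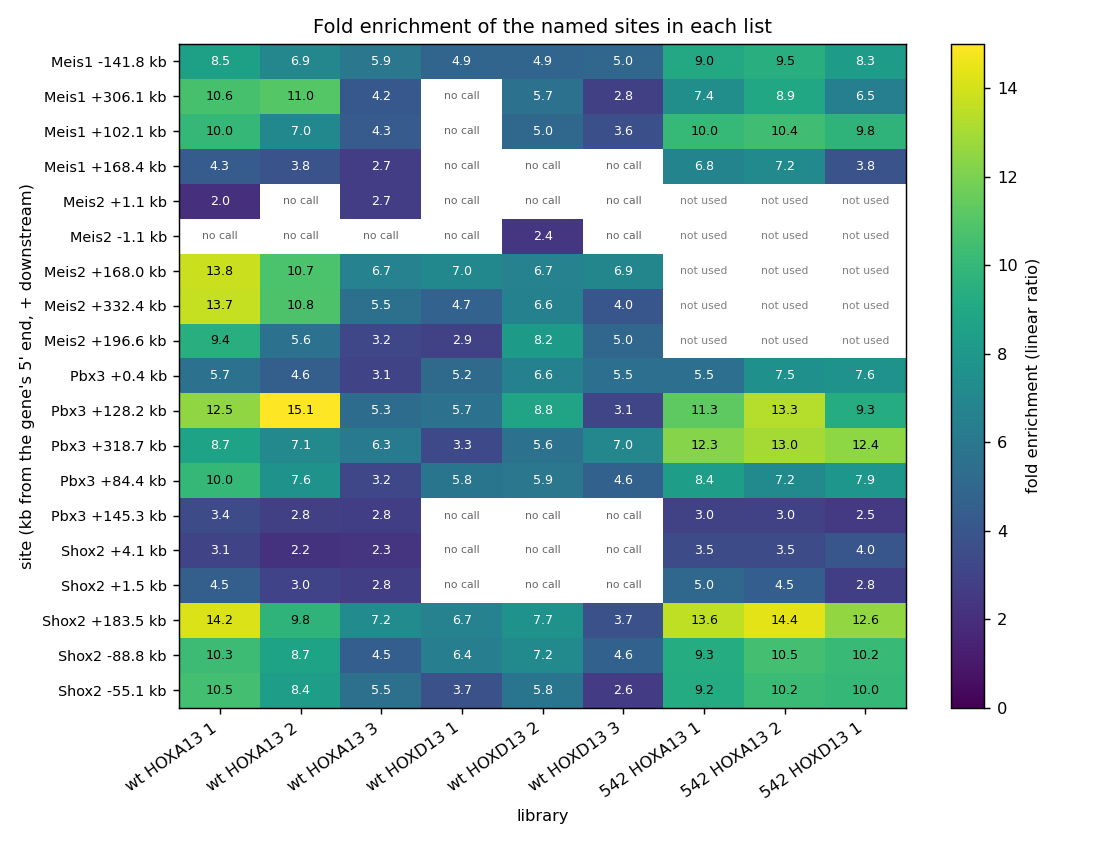
Fold enrichment (linear ratio, colour scale and printed value) of the named sites in each library, with each site given by its distance in kb from the 5′ end of its gene. The named sites reach 14.2 at Shox2 and 15.1 at Pbx3 in wt HOXA13 libraries, and the sites near the starts of Shox2 have no call with wt HOXD13.

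The difference between the antibodies was tested at sites of all 6 wt lists, by limma on log2 fold enrichment centred on the median of each library, across 13891 sites of the genome. With Benjamini-Hochberg adjustment over these, 0% were called higher with HOXA13 and 1 site, 0.0072%, lower. At an unadjusted p under 0.05 there were 1880 sites, 13.5% of those tested. None of the 17 sites at the 4 genes was called in this fit (0 of 17 by limma). With the replicate number as a block, an alternative given at the end, 3 of the 17 were called, beside 590 of the 13891. In the main fit, 5 of the 17 had an unadjusted p under 0.05. Of these 5, 4 were higher with HOXA13, beside 786 of the 1880 over the genome. The median log2 difference, HOXA13 minus HOXD13, was 0.20 over the 17 sites and -0.01 over all sites, and 11 of 17 were above 0. Without centring, the median of all sites was 0.31 and 16 of 17 were above 0.

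The Pbx3 start site had the lowest difference of the 17, a log2 difference of -0.73 (SE 0.21; limma adjusted p = 0.18). The highest was at a site 5′ of Meis2, chr2:116125370-116126743, with 0.78 (SE 0.24; limma adjusted p = 0.21). Its fold enrichment was 11.53, 9.05 and 4.94 with HOXA13 and 4.07, 3.51 and 3.64 with HOXD13, so that every HOXA13 value was the higher. Next was the Shox2 site at chr3:67035876-67037216, with 0.72 (SE 0.22; limma adjusted p = 0.196). The Meis1 upstream site differed by 0.20 (SE 0.23; limma adjusted p = 0.717).

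On the linear scale, every HOXA13 value exceeded every HOXD13 value at 2 of the 17 sites, those of Meis1 and Meis2 just described, beside 10% of the 13891 sites. Every HOXD13 value exceeded every HOXA13 value at 0 of 17, beside 1.04%. HOXA13 replicate 1 gave the highest fold enrichment at 14 of the 17 sites, and at 66.7% of all sites of 6 lists. This library thus stood above the others at most sites of the genome, before centring.

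The calls by limma changed when both replicates 3, sequenced with another read length, were left out. With replicates 1 and 2 alone, 731 of the 13891 sites were called by limma, among them the Meis2 sites at chr2:116125370-116126743 (log2 difference 1.01, adjusted p = 0.032) and chr2:115732929-115734075 (0.69, adjusted p = 0.0416). Leaving out HOXA13 replicate 3 alone gave 363 called sites, 0 of them among the 17. Leaving out HOXD13 replicate 3 alone gave 0 called sites. The part of read length was not tested.

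In the 542 line, sites were compared at Meis1, Pbx3 and Shox2. Meis2 was not used there because it lies on chromosome 2 beyond the insertion, where the mutant genome shifts positions. Called in all 3 lists of the 542 line were 21 of 45 wt sites at Meis1 (46.7%), 38 of 76 at Pbx3 (50%) and 15 of 25 at Shox2 (60%). The genome share was 34.2% of wt sites. At least 1 of the 3 lists called 34 at Meis1 (75.6%), 58 at Pbx3 (76.3%) and 21 at Shox2 (84%), beside 60.4%. All 12 sites of 6 wt lists at these genes were called in each of the 3 lists, beside 92.8% of such sites. Of the sites of a single wt list, all 3 lists called 4 of 18 at Meis1, 7 of 31 at Pbx3 and 5 of 12 at Shox2, beside 8.32% over the genome. Lists of the 542 line were long, 74344 to 117719 intervals, and genotype and mapping genome cannot be told apart.

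The Meis1 upstream site had 9.05 and 9.45 with HOXA13 and 8.26 with HOXD13 in the line. The Shox2 intergenic site had 13.6, 14.4 and 12.6, and the Pbx3 site in C230014O12Rik 12.3, 13.0 and 12.4. For that Pbx3 site each 542 value exceeded all 6 wt values. The Pbx3 intronic site chr2:34268170-34269274 went the other way, with 3.08 and 4.50 with HOXA13 and 1.98 with HOXD13 in the line, beside 4.81, 5.04 and 4.23 in the wt HOXA13 libraries and 2.76, 5.59 and 3.65 in the wt HOXD13 libraries. The site at 34268170 is not among the named sites. These differences were not tested. The share of all sites with every 542 value above every wt value was not counted. The single HOXD13 library of the line is labelled E11.5, so that its stage and genotype differ together from the wt HOXD13 libraries, and it has no replicate.

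Relative to list length, the 542 HOXA13 lists had 3.43 and 3.90 intervals per 10000 at Meis1, 6.36 and 6.86 at Pbx3, and 2.62 and 2.69 at Shox2. The wt HOXA13 lists, the same as those set against HOXD13 above, overlapped them at each gene. The ratio of wt to 542 was 0.983 at Meis1 (two-sided exact permutation p = 0.9), 0.965 at Pbx3 (exact permutation p = 0.5) and 0.795 at Shox2 (exact permutation p = 0.4), with 3 against 2 libraries and a smallest p of 0.1. When intervals under a fold enrichment of 5 were left out, the ratio turned to 1.27 at Shox2 (exact permutation p = 0.2). It was then 0.832 at Meis1 (exact permutation p = 0.1) and 0.785 at Pbx3 (exact permutation p = 0.6). Among the 10000 intervals of each list with the highest −log10 p, it was 0.519 at Meis1, 0.667 at Pbx3 and 0.733 at Shox2 (exact permutation p = 0.1 each). The number of other genes that reach this smallest p was not counted. The 542 HOXD13 list had 4.50 at Meis1, 5.69 at Pbx3 and 1.95 at Shox2.

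Regions without any wt site were joined over the lists of the line, which gave 32 at Meis1, 37 at Pbx3 and 13 at Shox2. All 3 lists called 0, 2 and 1 of them, beside 6.36% of 68896 such regions over the genome. They were chr2:34326804-34327582 and chr2:34455504-34456449 at Pbx3 and chr3:66820053-66821211 at Shox2. The Shox2 region had fold enrichments of 9.12 and 4.15 with HOXA13 and 5.04 with HOXD13.

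The density of sites was then set beside other genes, per Mb of gene body and flanks, since the windows differ in length from 0.410 to 0.603 Mb. Sites of all 6 wt lists numbered 13.3 per Mb at Pbx3 (exact Poisson 95% interval 5.74 to 26.2), 8.29 at Meis2 (2.69 to 19.4), 7.32 at Shox2 (1.51 to 21.4) and 1.85 at Meis1 (0.0470 to 10.3). The median protein-coding gene had 6.05. The order was Pbx3, Meis2, Shox2 and Meis1, with intervals that overlapped between neighbours, and it rested on 1 library. Without wt HOXD13 replicate 1, sites of the 5 remaining lists numbered 23.3 per Mb at Pbx3, 12.2 at Shox2, 11.1 at Meis1 and 9.95 at Meis2, an alternative chosen after the data were seen. With flanks of 100 kb in all 6 lists, Shox2 had 9.52 and Meis2 7.45. Pbx3 exceeded 85.3% of protein-coding genes and Meis1 19.6%. By sites of any wt list, Pbx3 had 126 per Mb, above 97.0% of genes, and Meis1 had 83.5, above 62.1%.

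Among other TALE genes, Meis3, Pbx2, Pbx4, Pknox1, Pknox2, Tgif1 and Tgif2 had a median of 9.77 sites of all 6 lists per Mb, between 2.41 at Tgif2 and 16.8 at Pknox2, and 6 of 7 lay above the median gene. Among 6 other genes of the proximal limb and girdle, Hoxa9, Hoxa10 and Hoxa11 had 36.6 to 39.6 in windows that overlap one another and that of Hoxa13, while Emx2 had 4.91, Tbx15 9.73 and Zbtb16 10.3. The median of these 6 was 23.5, and 5 of 6 lay above the median gene. Among 10 genes of the digit plate, including Hoxd13, Msx2 and Bmp2, the median was 15.9, between 4.95 at Dlx5 and 37.2 at Hoxa13, and 9 of 10 lay above the median gene. Of the members, 3 of 4 did. By sites of all 6 lists, more than 90% of genes were exceeded by 5 of the 10 digit genes and by 0 of the 4 members. The same was met by 3 of the 6 proximal genes (Hoxa9, Hoxa10 and Hoxa11) and by 1 of the 7 TALE genes. By sites of any wt list, Pbx3 exceeded 97.0% of genes, Meis1 62.1%, Meis2 53.5% and Shox2 38.4%. The other lists are given here by sites of all 6 lists only. These lists are short and were not compared by a test.

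**Figure D4:**
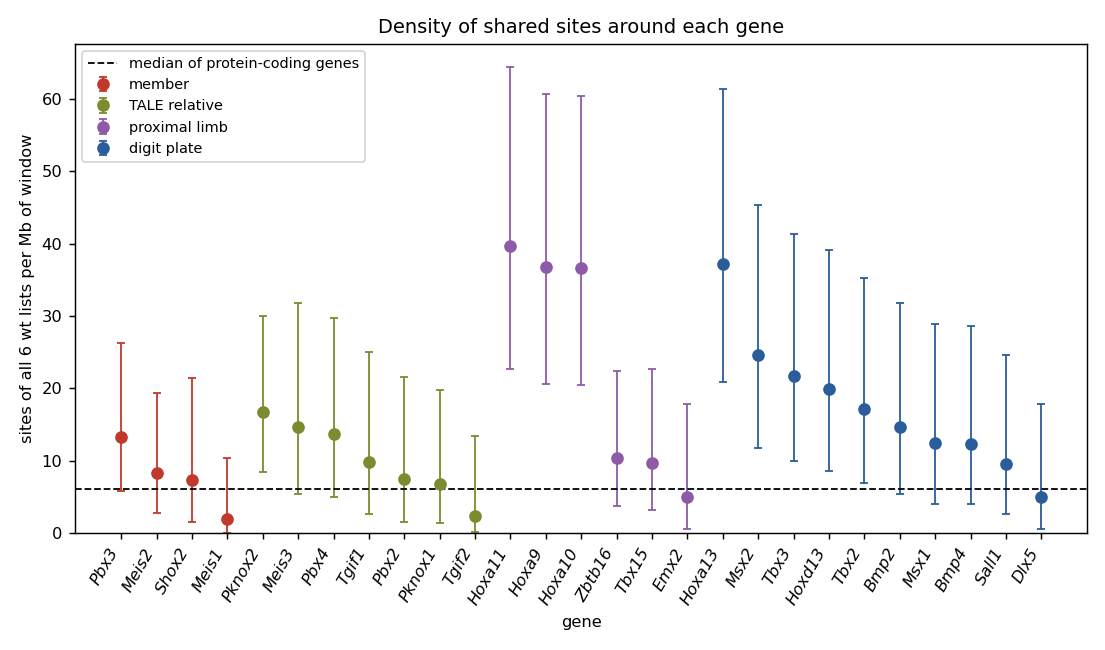
Sites of all 6 wt lists per Mb of window (vertical axis) for each gene, with exact Poisson 95% intervals as bars and the median protein-coding gene, 6.05, as a dashed line. Members range from 1.85 at Meis1 to 13.3 at Pbx3, other TALE genes from 2.41 to 16.8, other proximal limb genes from 4.91 to 39.6, and digit plate genes from 4.95 to 37.2.

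The windows are shared with other genes. The only other coding gene in the Meis2 window is BC052040, in that of Pbx3 it is Mapkap1, and in that of Shox2 it is Rsrc1, while the Meis1 window holds none. At Pbx3, 25 sites lay in introns of Mapkap1 and 30 in introns of Pbx3 alone, with 1 and 4 of them in all 6 lists. At Meis2, 21 lay in introns of Meis2 and 6 in introns of BC052040, and each set held 2 of all 6 lists. At Shox2, 9 lay in introns of Rsrc1, among them 2 of the 3 sites of all 6 lists. The nearest coding start was that of the member at all 45 sites at Meis1, 36 of 46 at Meis2, 35 of 76 at Pbx3 and 16 of 25 at Shox2. For the Pbx3 site in C230014O12Rik it was Mvb12b, a gene outside the window, 166541 bp away. A site in a window was not linked to a target gene by these data.

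Across all 192 sites, 40 held the HOX13 letters (20.8%, exact binomial 95% interval 15.3 to 27.3), beside 16.0% of all sites. In windows of the same length 1000 bp away from the member summits, 3.91% held them. Of the 17 sites of all 6 lists 5 did (29.4%, beside 25.5%), of the 36 sites of 4 or 5 lists 14 (38.9%, beside 23.7%), and of the 87 sites of 1 list 10 (11.49%, beside 10.4%). The interval for 4 or 5 lists was 23.1 to 56.5%.

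The counts by gene were small. At Meis1, 5 of 9 sites of 4 or 5 lists held them and 0 of 18 sites of 1 list. At Pbx3, 4 of 8 sites of all 6 lists did. At Shox2, 0 of 3 sites of all 6 lists and 0 of 4 sites of 4 or 5 lists held them, while 4 of 12 sites of 1 list did. With so few sites the exact intervals were wide, up to 70.8% for 0 of 3. Over every summit of a site, 2 of the 3 Shox2 sites of all 6 lists held the letters and 0 of 4 of those of 4 or 5 lists. Searched in that way, they were in 12 of the 17 sites of all 6 lists (70.6%, beside 52.8% over the genome) and in 63 of 192 (32.8%, beside 24.9%). Differences between the genes were not tested.

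Letters bound by the proximal factors themselves were searched in the same windows. TGACAG, the MEIS letters, occurred in 13 of 192 sites (6.77%), beside 6.39% of all sites, and in 0 of the 17 sites of 6 lists, beside 5.10%. TGATTNAT, which PBX and HOX proteins bind together, occurred in 3 of 192 (1.56%), beside 1.86%, and in 0 of 17, beside 2.19%. For 0 of 17 the exact interval reached 19.5%. Both 0s rest on the search around 1 summit. Over every summit of a site, the MEIS letters were in 3 of the 17 sites (17.6%, beside 25.4% over the genome), and TGATTNAT was in 3 of the 17 (17.6%, beside 9.03%).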

How the data were processed

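CUT&RUN peak lists for HOXA13 and HOXD13, 1 per library, were grouped by their titles. According to the study's methods, the authors trimmed reads with cutadapt, mapped them with Bowtie2 (wt on mm10, 542 on the mutant genome), filtered with SAMtools, marked duplicates with Picard, and called peaks per library with MACS2 without a control library. The growth protocol gives a single collection day, while 1 title gives E11.5. For each summit the authors deposited a fold enrichment, the ratio between the pileup of extended read ends and the background around it. The deposited −log10 p-values and q-values state how far that pileup exceeds the background, and the deposited score is a whole number derived from them. The reporting summary says that duplicates were removed, whereas its commands mark and keep them, and duplicates that were kept would raise pileups. Lists differ in length, so shares per list were used.

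Rows with equal start and end were joined to 1 interval, and wt intervals overlapping by at least 1 bp to 1 site. Pileups and read ends were recovered from fold enrichment and −log10 p, and at least 99.9% of pileups per library came out whole within 0.01 read ends. Genes were from GENCODE basic on GRCm38, sequence from the RefSeq copy of that assembly. Coordinates are 1-based. Groups were compared by exact permutation tests and by limma, with adjusted p under 0.05 as threshold, and checked on simulated data. The members and gene lists were chosen with earlier results of these data known, and 1 gene of the lists is not reported here. Named sites were those within 1000 bp of a start, the 3 others in most wt lists (ties by median percentile of fold enrichment), those called by limma, and at most 2 called in all lists of 1 antibody and none of the other. Printed sequences were at most 2 named sites per gene with the HOX13 letters. Alternatives were other windows, thresholds, site definitions, scalings and motif windows, the replicate number as a block, and leaving out each replicate. Python 3.11.15, pandas 2.3.3, numpy 2.4.6, scipy 1.17.1, pysam 0.24.0, matplotlib 3.10.9, R 4.3.3 and limma 3.58.1 were used.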

Additional observations from a re-analysis of the deposited data

How the results depend on the processing

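Of 410 alternative values, 331 kept their direction and side of the threshold, or, without a test, moved by at most 1.5 times (counts) or stayed in the exact interval of the share or density, 43 moved further, 5 passed the threshold only in the alternative, and 31 changed direction, none of them past a threshold. Same-numbered wt libraries of different antibodies were not treated as pairs in the main fit. Their deviations correlated at -0.02, 0.23 and 0.54 for replicates 1, 2 and 3, and HOXA13 replicate 1 went with HOXD13 replicate 2 at 0.46. Deviations were taken from the mean of each antibody, so these correlations depend on one another. They cannot decide whether the libraries were paired. With the replicate number as a block, limma called 590 sites and 3 at the genes, namely the Meis2 site at 116125370 (0.78, adjusted p = 0.0308), the Pbx3 start site at 34372413 (-0.73, adjusted p = 0.0434) and the Shox2 site at 67035876 (0.72, adjusted p = 0.0388).

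Genome-wide calls were 9 with pileups, 2 with fold enrichment of at least 3 and 731 with replicates 1 and 2 only (2 at the genes), and 0 to 363 when 1 replicate was left out (0 at the genes). The HOXA13 to HOXD13 ratio of window shares moved most at Meis1, to 6.54 with fold enrichment of at least 5 and 3.50 in the top 10000, and at Shox2, to 8.38 in the gene body. For the 6.54 and the 8.38, only HOXD13 replicate 2 had intervals left. Ratios were 0.959 at Pbx3 by summit rows and 0.990 at Shox2 with replicates 1 and 2 only, and leaving out 1 replicate gave 1.12 to 1.94 at Meis1, 1.13 to 1.40 at Meis2, 0.950 to 1.09 at Pbx3 and 0.896 to 1.36 at Shox2. Ratios of wt to 542 in the top 10000 were 0.519 at Meis1, 0.667 at Pbx3 and 0.733 at Shox2. At Shox2 the ratio was 1.27 both with fold enrichment of at least 5 and in the gene body only. Leaving out 1 replicate gave 0.924 to 1.06 at Meis1, 0.930 to 1.003 at Pbx3 and 0.602 to 0.911 at Shox2.

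Sites near a log2 difference of 0 changed sign. Without centring, which moved the median of all sites to 0.31, the values became 0.092 at 115749835 and 0.17 at 115868903 (Meis2), 0.29 at 34268170 and 0.20 at 34288461 (Pbx3) and 0.31 at 67069922 (Shox2). Quantile normalization gave 0.11 at 34268170 and pileups gave 0.39 at 67069922. Replicates 1 and 2 only gave 0.15 at 115868903, 0.14 at 34288461, -0.022 at 34448384 and 0.053 at 67069922. Leaving out 1 replicate gave -0.46 to 0.021 at 115868903, -0.030 to 0.57 at 34053699, -0.20 to 0.16 at 34268170, -0.25 to 0.13 at 34288461, -0.030 to 0.32 at 34448384 and -0.11 to 0.11 at 67069922. The cause was not tested.

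Sites in every wt list at Meis1, Meis2, Pbx3, Shox2 and in all were 0, 1, 3, 1 and 5 as runs of summits within 100 bp, and 0, 1, 0, 0 and 1 with fold enrichment of at least 5. Windows of 100 kb left 0 at Meis1 (0 per Mb) and 3 at Meis2. Leaving out 1 replicate gave 1 to 6, 5 to 6, 8 to 14, 3 to 5 and 17 to 31, the highest without HOXD13 replicate 1. Sites per Mb were 1.85 to 11.1, 8.29 to 9.95, 13.3 to 23.3 and 7.32 to 12.2 when 1 replicate was left out. Sites of any wt list numbered 83.5, 76.3, 126 and 61.0 per Mb. The HOX13 letters were in 10.9% of sites in windows of 50 bp, 29.2% in 200 bp and 32.8% over every summit (70.6% for sites of all 6 lists). The MEIS letters were in 3.65%, 13.0% and 13.0%, and in 17.6% of sites of all 6 lists both in 200 bp and over every summit. TGATTNAT was in 0.521%, 4.17% and 6.77%, and in 17.6% of sites of all 6 lists over every summit. A wider window or more summits search more sequence. The shortest list had 38.5 M read ends and another wt list fewer, 36.9 M, so that list length does not follow from read ends alone, and a call that is lacking is not a measured 0.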
